A study of Mus musculus with 12 samples.

Results

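Neutrophils carry their antimicrobial proteins in granules that are filled one after another as the cell matures: primary granules at the promyelocyte stage, secondary (specific) granules at the myelocyte and metamyelocyte stages, and tertiary (gelatinase) granules later. The 10 genes described here were chosen by name as products of the secondary granules (Ngp, Ltf, Camp, Lcn2, Mmp8, Cd177 and Olfm4) and of tertiary granules or late neutrophils (Mmp9, Retnlg and Asprv1). They are 10 of the 55487 genes in the count table, and all 10 passed the filter on low counts that left 14618 genes for testing. The proteins have separate jobs. Lactotransferrin (Ltf) and lipocalin 2 (Lcn2) withhold iron, cathelicidin (Camp) damages microbial membranes, and the collagenase Mmp8 and the gelatinase Mmp9 cut matrix proteins. In the mouse, Ngp is a cathelicidin-related protein of the specific granule. The transcription factor C/EBP-epsilon (Cebpe) is needed for secondary granule genes to be expressed in maturing neutrophils. Classical monocytes arise from the same myeloid progenitors.

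The study measured RNA in 12 libraries of mouse monocytes labelled Ly6C+, each made from 50k cells, with 3 libraries in each of 4 groups that follow the sample titles. BM was bone marrow with the genotype label WT and no age given. KO was fetal liver at embryonic day E13.5 with the genotype label KO. Mixed was fetal liver at E15.5 with the genotype label WT, and the WT group was fetal liver with the genotype label WT, of which WT 1 was taken at E13.5 and WT 2 and WT 3 at E15.5. The sources used here do not give what sets Mixed apart from WT, the allele behind the KO label, whether animals were pooled, or any sort marker besides Ly6C. Levels are given as CPM, counts scaled to the library total after the filter on low counts and adjusted by TMM scaling. Zeb2 is a transcription factor named with cMaf in the title of the series. It ran from 20.1 to 23.8 CPM in the KO libraries and from 141 to 165 in WT. KO and age can be told apart only through WT 1, the single control library of the same embryonic day as KO. For KO against WT, every fit below with embryonic day as a covariate therefore rests on WT 1 alone as control. WT 1 was also the lowest WT library for all 10 granule genes.

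Total counts per library lay between 17384956 and 24473502. Monocyte genes were present in every library. The 12 monocyte markers had a summed level of 16960 to 17620 CPM in BM and of 5446 to 5680 in WT. Mixed was at 6609 to 6812 and KO at 3695 to 4201. The largest part of the sum in BM, Mixed and WT was F13a1, at 2249 to 2663 CPM in WT and 362 to 442 in KO. Ly6c2, a gene for Ly6C, went the other way, at 1372 to 1684 CPM in KO and 490 to 549 in WT. Of the 12, 3 were higher and 8 lower in KO against WT, where 18.2% of all genes were higher and 19.9% lower. Among the markers of neutrophils, Ly6g, which marks the mature cell, was between 0.182 and 1.41 CPM in the BM, Mixed and WT libraries and between 8.28 and 13.4 in KO. Bulk RNA cannot tell fewer cells of a type from less RNA per cell, and this holds for every level below. For the granule genes, 2 libraries stood apart from the others of their groups: all 10 genes were highest in KO 1 among the KO libraries and in WT 3 among the WT libraries. Over all genes tested, KO 1 was the highest KO library for 33.6% and WT 3 the highest WT library for 39.6%. Fits without KO 1 and WT 3, given below, were chosen after seeing this. Removing the highest libraries narrows the spread within groups by construction, so calls and adjusted p-values of those fits are no separate support.

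Ngp, Ltf and Camp lie near each other on chromosome 9, in the build GRCm38 with positions from GENCODE: Camp at chr9:109847379-109849617 on the minus strand, Ngp at chr9:110419747-110423012 on the plus strand and Ltf at chr9:111019271-111042767 on the plus strand. The gap from Camp to Ngp was 570 kb and that from Ngp to Ltf 596 kb. Mmp8 is on the same chromosome but far away, at chr9:7558456-7568485 on the plus strand. The others are Lcn2 at chr2:32384633-32388252 on the minus strand, Mmp9 at chr2:164940780-164955850 on the plus strand, Retnlg at chr16:48872621-48874496 on the plus strand, Cd177 at chr7:24743983-24760311 on the minus strand, Olfm4 at chr14:79984081-80023139 on the plus strand and Asprv1 at chr6:86628164-86629710 on the plus strand. Olfm4 overlaps a long noncoding RNA gene, Gm6999, on the same strand, so reads of the pair can be shared, and the other 9 overlap no annotated gene.

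Promoter sequence is shown for 5 of the genes because the data separate them. Ngp, Ltf and Camp moved together from library to library, Mmp8 differed between groups with little spread within them, and Cd177 was high in bone marrow alone. The sequences come from RefSeq (GRCm38.p6), run 5′ to 3′ on the gene's own strand, and end before the first annotated exon. Capitals mark the C/EBP letters TTGCNNAA or their reverse complement TTNNGCAA. The windows are chr9:110419558-110419746 for Ngp, chr9:111019042-111019270 for Ltf, chr9:109849618-109849706 for Camp, chr9:7558179-7558428 for Mmp8 and chr7:24760312-24760561 for Cd177.
Ngp promoter: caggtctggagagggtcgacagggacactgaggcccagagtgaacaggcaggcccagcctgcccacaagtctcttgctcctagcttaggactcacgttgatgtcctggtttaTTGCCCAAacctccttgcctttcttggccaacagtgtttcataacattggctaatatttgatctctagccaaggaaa
Ltf promoter: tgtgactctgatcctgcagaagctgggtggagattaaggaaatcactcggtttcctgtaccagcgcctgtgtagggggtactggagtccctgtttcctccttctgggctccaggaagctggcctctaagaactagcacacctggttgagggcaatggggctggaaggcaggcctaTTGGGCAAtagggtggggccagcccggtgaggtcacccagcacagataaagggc
Camp promoter: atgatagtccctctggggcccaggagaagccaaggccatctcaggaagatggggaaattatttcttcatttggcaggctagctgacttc
Mmp8 promoter: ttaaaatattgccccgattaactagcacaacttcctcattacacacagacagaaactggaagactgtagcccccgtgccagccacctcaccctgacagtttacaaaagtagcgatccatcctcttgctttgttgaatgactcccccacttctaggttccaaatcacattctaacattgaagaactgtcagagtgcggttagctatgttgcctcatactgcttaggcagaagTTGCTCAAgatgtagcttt
Cd177 promoter: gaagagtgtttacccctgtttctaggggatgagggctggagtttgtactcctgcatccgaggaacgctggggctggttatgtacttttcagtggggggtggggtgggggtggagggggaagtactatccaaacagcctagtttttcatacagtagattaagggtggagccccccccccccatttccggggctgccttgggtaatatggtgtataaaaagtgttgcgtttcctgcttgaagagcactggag

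RefSeq promoters were at hand for 9 of the 10 genes (not Mmp9). Within the 250 bases before the RefSeq start, the C/EBP letters on either strand were found in 5 of 9, against 9.57% of 32841 mouse promoters of that length. The closest to the start were those of Ngp, 11 bases before it in a stretch not printed, and of Mmp8, 19 bases before it. Ngp held another at 138 bases, Ltf 1 at 75, Lcn2 1 at 216 and Retnlg 1 at 246. The PU.1 core GAGGAA or its complement TTCCTC was in 5 of 9 (Ltf, Lcn2, Mmp8, Cd177 and Olfm4), against 23.3% of all promoters. TATAAA or its complement TTTATA was in 1 of 9, Cd177, 40 bases before the start, against 12.4%. The motifs do not overlap each other within these windows. These matches describe letters and show no binding.

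The collagenase gene Mmp8 differed between groups with the least spread within them of the 10 genes. Its level was 312, 306 and 289 CPM in BM 1 to 3, 1085, 1028 and 987 in KO 1 to 3, 138, 142 and 144 in Mixed 1 to 3, and 141, 157 and 190 in WT 1 to 3. The KO libraries lay above all others, BM came next, and Mixed and WT overlapped. Mmp8 rose in KO against WT by 2.67 on the log2 scale (SE 0.081, 6.36-fold, adjusted p = 8.34e-15, edgeR's quasi-likelihood test, 3 against 3 libraries). It also rose in BM against WT, by 0.90 (SE 0.078, 1.86-fold, adjusted p = 8.73e-09). The KO difference was 2.89 with embryonic day as a covariate, a fit in which WT 1 alone stands as control for KO. It was 2.76 without KO 1 and WT 3, in a fit that narrows the spread within groups by construction.

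Lcn2, whose product binds bacterial siderophores, was measured at 394, 231 and 250 CPM in KO 1 to 3 and at 51.3, 62.8 and 130 in WT 1 to 3. BM 1 to 3 had 23.8, 24.2 and 35.1 CPM, and Mixed 1 to 3 had 33.4, 36.2 and 33.6. Every KO library was above every other library, while BM and Mixed overlapped. Lcn2 rose in KO against WT by 1.84 (SE 0.36, 3.58-fold, adjusted p = 0.00378) and fell in BM against WT (log2 difference -1.56, SE 0.39, adjusted p = 0.00696). With embryonic day as a covariate the KO difference was 2.53 (adjusted p = 0.0279).

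Asprv1 encodes a retroviral-like aspartic protease that is best known from skin. Its levels were 72.2, 57.5 and 62.8 CPM in KO 1 to 3 and 1.12, 1.56 and 4.32 in WT 1 to 3. They were 0.934, 1.31 and 0.992 in BM 1 to 3 and 1.01, 0.273 and 0.385 in Mixed 1 to 3. The 3 KO libraries stood above the other 9, in which the counts were small: 65 in the BM libraries together, 36 in Mixed and 147 in WT. The difference of KO from WT was 4.76 (SE 0.37, 27.0-fold, adjusted p = 5.29e-06), and it was 5.55 without WT 3, where the WT level was highest. BM and WT overlapped, with a difference of -1.12 (SE 0.55, adjusted p = 0.0994). It was -0.33 without WT 3 (adjusted p = 0.411) and -1.43 without WT 1 (adjusted p = 0.0262), and it was called by edgeR without the robust dispersion estimate (adjusted p = 0.0278) and in a fit of only the BM and WT libraries (adjusted p = 0.0373).

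Olfm4, a secreted olfactomedin glycoprotein held in the specific granules of a subset of neutrophils, separated bone marrow from fetal liver. It stood at 487, 266 and 348 CPM in KO 1 to 3, at 143, 164 and 250 in WT 1 to 3, and at 113, 118 and 109 in Mixed 1 to 3. In BM it was close to the floor, with 14, 19 and 1 counts in BM 1 to 3 (0.769, 0.886 and 0.0496 CPM). None of the 4 groups overlapped. Olfm4 fell in BM against WT (log2 difference -8.34, SE 0.52, 324-fold, adjusted p = 7.41e-07). It rose in KO against WT by 0.98 (SE 0.28, 1.98-fold, adjusted p = 0.0219), a call that was lost without KO 1 (0.72, adjusted p = 0.0695), without WT 1 (0.82, adjusted p = 0.0766), without WT 2 (0.90, adjusted p = 0.0779) and with embryonic day as a covariate (1.38, adjusted p = 0.0695). DESeq2 (1.00, adjusted p = 0.0971) and a fit of only the KO and WT libraries (1.01, adjusted p = 0.0923) did not call it either. Over 20 settings it was called in 14, with adjusted p between 0.000713 and 0.0971.

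Cd177, a surface glycoprotein that presents proteinase 3 and binds the endothelial protein PECAM1, went the other way. It was at 499, 576 and 566 CPM in BM 1 to 3 and at 33.7 CPM or below in each of the other 9 libraries. Those were 21.1, 3.57 and 5.03 in KO 1 to 3, 6.54, 5.65 and 6.64 in Mixed 1 to 3, and 10.6, 13.1 and 33.7 in WT 1 to 3. BM lay above all fetal libraries, and KO overlapped both Mixed and WT. Cd177 rose in BM against WT by 4.82 (SE 0.59, 28.3-fold, adjusted p = 9.18e-05), and by 5.51 without WT 3. KO against WT gave -0.95 (SE 0.65, adjusted p = 0.298). That difference was -1.45 without KO 1 and WT 3 (adjusted p = 4.05e-07) and -2.15 without KO 1 alone (adjusted p = 0.0231). It was -0.26 without WT 3 alone (adjusted p = 0.803) and -0.07 with embryonic day as a covariate (adjusted p = 0.973), so the 2 libraries moved it in opposite directions. The fit without both was chosen after seeing the data and narrows the spread within groups by construction.

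**Figure D1:**
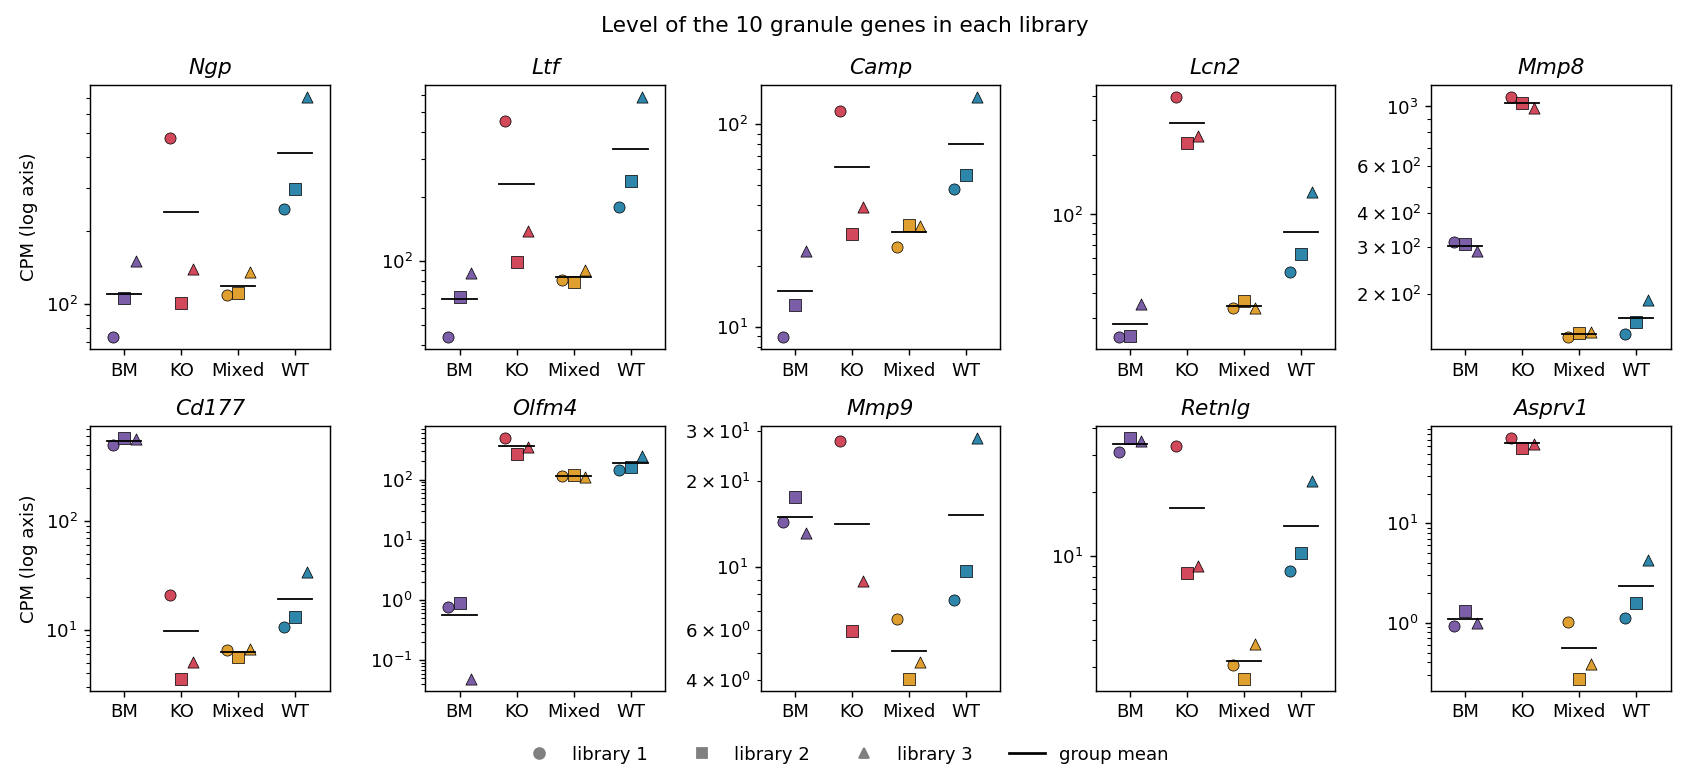
Level of each of the 10 genes (CPM, log axis, own scale in each panel) in the 12 libraries by group, with circles, squares and triangles for libraries 1, 2 and 3 and a line at the group mean. Mmp8 and Asprv1 are high in all 3 KO libraries (987 to 1085 and 57.5 to 72.2 CPM), Cd177 in all 3 BM libraries (499 to 576 CPM), and KO 1 and WT 3 are the highest of their groups in every panel.

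Ngp was the gene of the set with the highest mean in WT and in Mixed per length (on the TPM scale below). Its highest library was 4.71 times its lowest in KO, 2.87 times in WT, 2.06 times in BM and 1.25 times in Mixed. It was at 245, 297 and 705 CPM in WT 1 to 3 and at 478, 101 and 139 in KO 1 to 3. Mixed 1 to 3 had 109, 111 and 136 CPM, and BM 1 to 3 had 73.2, 106 and 151. KO overlapped all other groups, and every BM and Mixed library was below every WT library. Ngp fell in BM against WT (-1.92, SE 0.66, 3.77-fold, adjusted p = 0.031), but without WT 3 the difference was -1.31 (adjusted p = 0.117), without BM 1 -1.69 (adjusted p = 0.0958) and without BM 2 -1.92 (adjusted p = 0.0799). The call was also lost without the filter on low counts (adjusted p = 0.0655). KO against WT gave -0.80 (SE 0.63, adjusted p = 0.38). Without KO 1 it was -1.79 (adjusted p = 0.0344), and with embryonic day as a covariate -0.01 (adjusted p = 0.995).

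Ltf, the iron-binding lactotransferrin, had the same highest and lowest KO and WT libraries as Ngp. It was at 178, 236 and 587 CPM in WT 1 to 3, at 454, 98.9 and 137 in KO 1 to 3, at 81.5, 79.6 and 90.8 in Mixed 1 to 3, and at 43.6, 67.3 and 87.8 in BM 1 to 3. KO overlapped WT but lay above Mixed and BM, which overlapped each other. Ltf fell in BM against WT (-2.33, SE 0.68, 5.03-fold, adjusted p = 0.0151), and the call was lost without WT 3 (-1.65, adjusted p = 0.056) and without BM 1 (-2.11, adjusted p = 0.0545). KO against WT gave -0.54 (SE 0.64, adjusted p = 0.568), and 0.39 with embryonic day as a covariate (adjusted p = 0.824).

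Camp encodes the precursor of the mouse cathelicidin peptide. It was at 48.0, 56.4 and 136 CPM in WT 1 to 3, at 116, 28.9 and 39.0 in KO 1 to 3, at 24.97, 31.96 and 31.5 in Mixed 1 to 3, and at 8.90, 12.9 and 23.6 in BM 1 to 3. All BM libraries were below all fetal liver libraries. Camp fell in BM against WT (-2.40, SE 0.67, 5.28-fold, adjusted p = 0.0126), and without WT 3 the difference was -1.79 (adjusted p = 0.0454). KO against WT gave -0.39 (SE 0.60, adjusted p = 0.675), and 0.38 with embryonic day as a covariate (adjusted p = 0.82).

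The gelatinase gene Mmp9 was the weakest separator of the groups. It was at 14.3, 17.5 and 13.1 CPM in BM 1 to 3, at 27.6, 5.94 and 8.92 in KO 1 to 3, at 6.54, 4.05 and 4.62 in Mixed 1 to 3, and at 7.64, 9.65 and 28.3 in WT 1 to 3. BM lay inside the range of both KO and WT, and Mixed was below BM and WT. Its difference from WT was -0.10 in KO (SE 0.64, adjusted p = 0.925) and -0.03 in BM (SE 0.64, adjusted p = 0.977). Without KO 1 and WT 3 the BM difference was 0.78 (adjusted p = 0.00235), in a fit that narrows the spread within groups by construction.

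Retnlg, which encodes a secreted resistin-like protein, was at 30.8, 35.9 and 34.7 CPM in BM 1 to 3 and at 33.0, 8.31 and 8.96 in KO 1 to 3. Mixed 1 to 3 had 3.07, 2.64 and 3.85 CPM, and WT 1 to 3 had 8.48, 10.3 and 22.6. BM was above WT and Mixed, Mixed was below all other groups, and KO 1 alone reached the BM range. BM against WT gave 1.28 (SE 0.56, adjusted p = 0.0745), and over 19 settings it was called in 6. These were DESeq2 (adjusted p = 0.0386), edgeR without the robust dispersion estimate (adjusted p = 0.00933) and a fit of only the BM and WT libraries (adjusted p = 0.0495). The others were the fits without KO 1 (adjusted p = 0.00792), without WT 3 (adjusted p = 0.0323) and without KO 1 and WT 3 (1.84, adjusted p = 1.7e-10). Leaving out these 2 libraries narrows the spread within groups by construction. KO against WT gave 0.28 (SE 0.57, adjusted p = 0.757), and -0.13 without both libraries (adjusted p = 0.601).

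Counted over the set, 4 of the 10 genes were called in KO against WT, all higher (Lcn2, Mmp8, Olfm4 and Asprv1), where 38.1% of all genes tested were called, 18.2% higher and 19.9% lower. The KO and WT libraries did not overlap for the same 4 genes, against 47.5% of all genes. The median log2 difference of the 10 was 0.09, beside -0.03 over all genes, and the median absolute difference was 0.87 beside 0.28. Without KO 1 and WT 3, 6 of the 10 were called in KO against WT, with Ngp (-1.17, adjusted p = 0.0406) and Cd177 lower, where 33.6% of all genes were called, and the median of the 10 was -0.17. This fit was chosen after seeing the data, and it narrows the spread of these genes within groups by construction.

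In BM against WT, 7 of 10 were called, Mmp8 and Cd177 higher and Ngp, Ltf, Camp, Lcn2 and Olfm4 lower. The background was 64% called, 32.1% higher and 31.9% lower, so the share of calls among these genes was near that of all genes. The libraries did not overlap for 8 of 10, against 68.1% of all genes. The median absolute difference was 1.74 in the set and 0.56 over all genes. Without WT 3 alone, 6 of 10 were called, where 60% of all genes were. Without KO 1 and WT 3, 9 of 10 were called, where 60.6% of all genes were. That fit was chosen after seeing the data and narrows the spread of these genes within groups by construction. The median of the 10 was -1.34 with all libraries and -0.69 without WT 3.

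**Figure D2:**
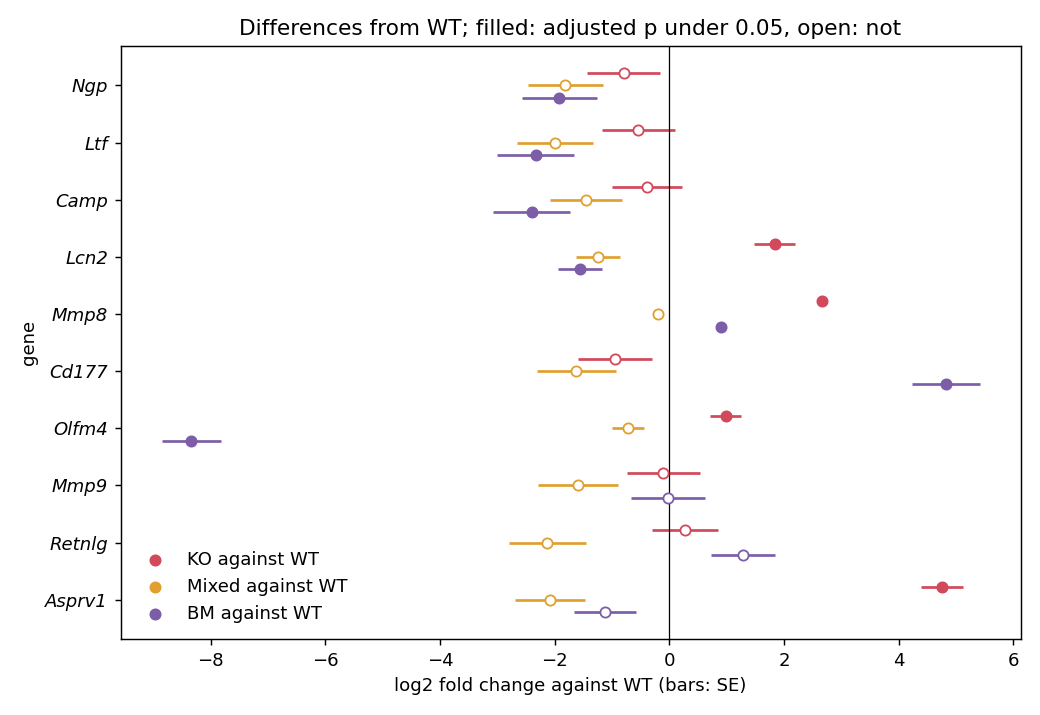
Log2 fold change of each of the 10 genes against WT for KO (red), Mixed (orange) and BM (purple), with bars for the standard error and filled points for an adjusted p under 0.05. KO points run from -0.95 (Cd177) to 4.76 (Asprv1), BM points from -8.34 (Olfm4) to 4.82 (Cd177), and no Mixed point is filled.

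Mixed against WT compares fetal liver libraries of the same genotype label. All 10 differences were negative, from -0.20 (Mmp8) to -2.13 (Retnlg), and none was called by edgeR's quasi-likelihood test, where 8.07% of all genes were called, 4.21% higher and 3.87% lower. Adjusted p ran from 0.0744 (Asprv1) to 0.228 (Mmp9), and 9 of the 10 had an unadjusted p under 0.05, beside 22.3% of all genes. The libraries did not overlap for 9 of 10, all but Mmp8, against 27% of all genes. The median difference was -1.61, beside -0.01 over all genes, and it was -0.88 without WT 3. Without that library Ngp was at -1.20, Ltf at -1.31 (-1.99 with it), Camp at -0.83, Cd177 at -0.93, Retnlg at -1.57 and Asprv1 at -1.28. DESeq2 called 5 of the 10 and 12.1% of all genes, and edgeR without the robust dispersion estimate 6 of the 10 and 7.66% of all genes. Leaving out single libraries moved the count to 2 without KO 1 (Ltf and Retnlg, with 8.17% of all genes called), 2 without WT 1 (Mmp8 and Asprv1, with 3.07%) and 1 without WT 3 (Asprv1, with 9.69%). Without KO 1 and WT 3 it was 6 (Ltf, Lcn2, Mmp9, Retnlg, Cd177 and Asprv1), where 10.6% of all genes were called. That fit, chosen after seeing the data, narrows the spread of these genes within groups by construction. The 10 genes are not independent of each other, and WT 3 was the highest WT library for all of them.

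The comparisons with Mixed as reference share its 3 libraries. KO (E13.5) and Mixed (E15.5) differ in embryonic day and genotype label together, which cannot be told apart between these 2 groups. In KO against Mixed, 5 of 10 were called, all higher, where 36.7% of all genes were called and 18.2% higher. These were Lcn2 (3.08), Mmp8 (2.87), Retnlg (2.40, adjusted p = 0.021), Olfm4 (1.70) and Asprv1 (6.83). Retnlg was 1.44 without KO 1 (adjusted p = 0.0353) and lost its call without any of the 3 Mixed libraries (2.37, 2.28 and 2.55, adjusted p = 0.0688, 0.0725 and 0.053 without Mixed 1, 2 and 3). With embryonic day as a covariate, Retnlg was 3.36 and not called (adjusted p = 0.195). Asprv1 was 7.59 without Mixed 1. The libraries did not overlap for 6 of 10, these 5 and Ltf, against 48.3% of all genes. In BM against Mixed, 4 of 10 were called, Mmp8 (1.10), Retnlg (3.41) and Cd177 (6.45) higher and Olfm4 (-7.62) lower, where 58.4% of all genes were called, 29.5% higher and 28.9% lower. The libraries did not overlap for 6 of 10, these 4, Camp and Mmp9, against 64.2% of all genes. Ngp gave a difference of -0.10 (SE 0.65, adjusted p = 0.905).

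Between BM and KO, which differ in tissue, age and genotype label together, 7 of 10 were called, where 63.8% of all genes were, 31.8% higher and 32% lower. The libraries did not overlap for the same 7, against 67.8% of all genes. Cd177 was higher in BM by 5.78, and by 6.97 without KO 1. Lcn2 (-3.40), Mmp8 (-1.77), Olfm4 (-9.32), Asprv1 (-5.88), Ltf (-1.80, adjusted p = 0.0436) and Camp (-2.02, adjusted p = 0.0276) were lower. The calls of Ltf and Camp were lost without KO 1, at -0.84 (adjusted p = 0.214) and -1.16 (adjusted p = 0.114). Camp also lost its call without BM 1 (-1.75, adjusted p = 0.0874) or BM 2 (-1.96, adjusted p = 0.076), and Ltf was called in 7 of 19 settings.

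Because libraries of 1 group disagreed so widely, the spread within groups was set beside the spread between them, as SDs of log2 CPM. The pooled SD within groups was 0.77 for Ngp, 0.78 for Ltf, 0.76 for Camp, 0.79 for Mmp9, 0.81 for Cd177 and 0.83 for Olfm4. It was 0.68 for Retnlg, 0.65 for Asprv1, 0.44 for Lcn2 and 0.12 for Mmp8. The median over all genes tested was 0.16. Of the 10 genes, 8 lay above the 90th percentile of all genes (0.58), the exceptions being Lcn2 at percentile 82 and Mmp8 at percentile 36.3. Olfm4 had an SD of 1.54 within BM, where it rested on 34 counts in all, but 0.35 within the fetal liver groups. Asprv1 also had small counts, 65 in BM, 36 in Mixed and 147 in WT, so counting noise enters the SD of both genes. The biological coefficient of variation fitted by edgeR was 8.33 times the trend at its level for Ngp, 8.35 times for Ltf, 8.65 times for Cd177 and 1.15 times for Mmp8.

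The SD of the 4 group means exceeded the SD within groups by 11.1 times for Mmp8, 5.26 times for Olfm4, 4.61 times for Asprv1, 3.72 times for Cd177 and 3.46 times for Lcn2. The ratio was 2.04 for Retnlg, 1.35 for Camp, 1.30 for Ltf, 1.08 for Ngp and 0.89 for Mmp9. The median over all genes was 1.95. Mmp9 was the only 1 of the 10 whose libraries spread more within groups than between them, where 21.7% of all genes did. Among the 3 fetal liver groups alone, this was so for 4 of 10, Ngp (0.999), Camp (0.84), Mmp9 (0.82) and Cd177 (0.82), against 42% of all genes. There the ratio was 12.1 for Mmp8, 4.73 for Asprv1, 3.25 for Lcn2, 2.38 for Olfm4, 1.48 for Retnlg and 1.07 for Ltf. In the edgeR test for any difference among the 4 groups, 8 of 10 were called and Ngp (adjusted p = 0.0608) and Mmp9 (adjusted p = 0.201) were not, where 73.8% of all genes were called. Without WT 3, Ltf (adjusted p = 0.0573) and Camp (adjusted p = 0.0627) lost that call. Both also lost it without BM 1, without BM 2 and without any 1 of the Mixed libraries. Ngp gained it without KO 1 (adjusted p = 0.0101) or KO 2 (adjusted p = 0.0409), and Mmp9 was at 0.0697 without KO 1.

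**Figure D3:**
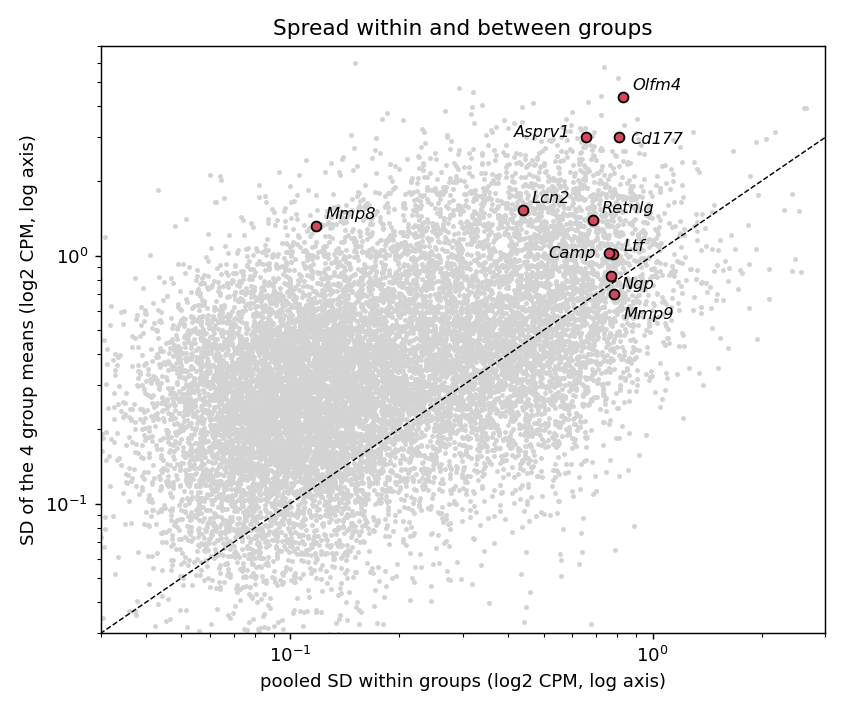
Pooled SD within groups (x axis) against SD of the 4 group means (y axis), both of log2 CPM on log axes, for the 10 genes (red) and all genes tested (grey), with a dashed line where they are equal. Mmp8 stands at a within-group SD of 0.12, the other 9 genes between 0.44 and 0.83, and Mmp9 is the gene below the line. The value of 0.83 is that of Olfm4, which rested on 34 counts in BM.

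The pattern within groups was a shared one. KO 1 exceeded the mean of the KO libraries by 1.34 on the log2 scale for Ngp, 1.31 for Ltf, 1.19 for Camp, 1.27 for Mmp9, 1.28 for Retnlg and 1.52 for Cd177. For Lcn2 (0.48), Olfm4 (0.45), Asprv1 (0.18) and Mmp8 (0.07), which were all called in KO against WT, the excess was smaller. WT 3 exceeded the WT mean by 0.79 to 1.14 for 8 genes, by 0.47 for Olfm4 and by 0.23 for Mmp8. KO 2 was the lowest KO library for 9 of 10 and WT 1 the lowest WT library for 10 of 10. WT 1 is also the library of the earlier embryonic day, so its low place and its age cannot be told apart. In Mixed and BM no library was the highest for all 10. The highest Mixed library was Mixed 3 for 5 genes, Mixed 2 for 3 and Mixed 1 for 2, and the lowest was Mixed 2 for 5, Mixed 1 for 4 and Mixed 3 for 1. The highest BM library was BM 2 for 5, BM 3 for 4 and BM 1 for 1, and the lowest was BM 1 for 7 and BM 3 for 3. Ngp, Ltf, Camp and Lcn2 shared their order in BM, with BM 3 highest and BM 1 lowest.

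**Figure D4:**
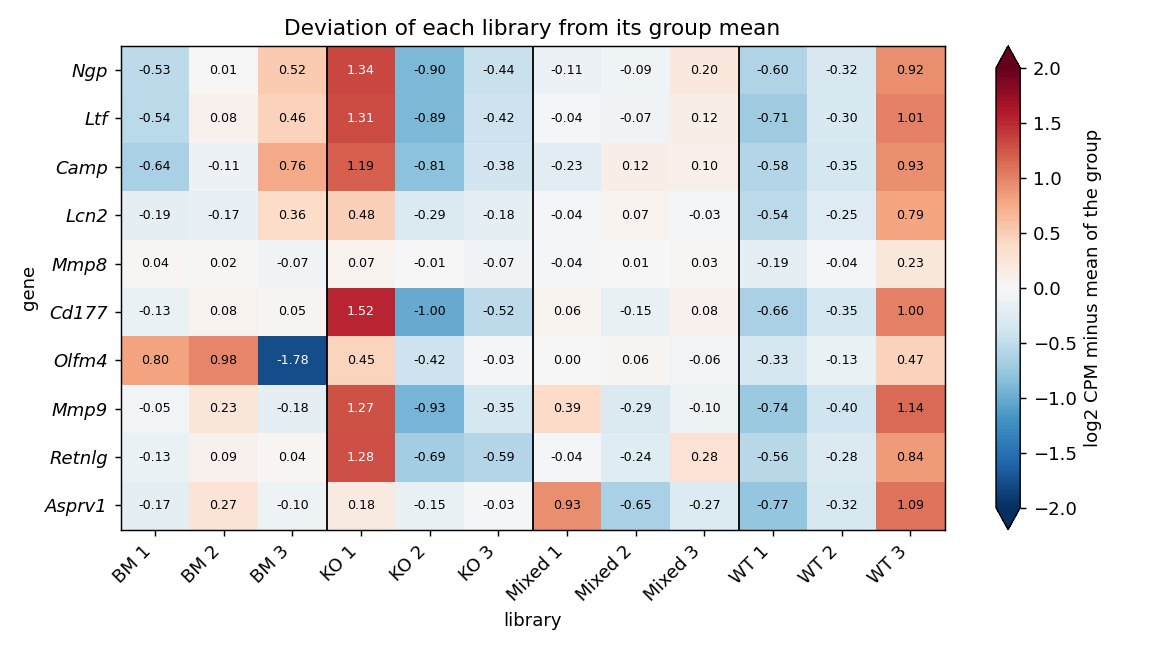
Deviation of each library from the mean of its group (log2 CPM, red above and blue below) for the 10 genes in the 12 libraries. The KO 1 and WT 3 columns are red in every row, with 1.34 and 0.92 for Ngp, and the Mmp8 row stays within 0.23 of 0.

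Across the 12 libraries, these deviations had a Pearson r of 0.996 between Ngp and Ltf, 0.98 between Ngp and Camp, 0.952 between Ngp and Cd177, 0.947 between Ngp and Retnlg and 0.985 between Retnlg and Cd177. With Ngp, Lcn2 had 0.89, Mmp9 0.872, Mmp8 0.589, Asprv1 0.474 and Olfm4 0.064. All pairs share the same libraries, and KO 1 and WT 3 weigh heavily in each value. Olfm4's low value includes the BM libraries, where it rested on 34 counts in all.

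Dividing by Ngp in the same library shows which genes kept a common proportion, and the ratios are for comparing libraries, since CPM is not per length. The ratio of Ltf to Ngp stayed between 0.582 and 0.985 in all 12 libraries, a 1.69-fold range, while Ngp itself ranged from 73.2 to 705 CPM. It was 0.951 to 0.985 in KO, 0.726 to 0.832 in WT, 0.668 to 0.747 in Mixed and 0.582 to 0.633 in BM. Camp to Ngp stayed between 0.122 and 0.289, with 0.190 to 0.196 in WT and 0.243 to 0.285 in KO. Cd177 to Ngp was 0.0353 to 0.0441 in KO, 0.0432 to 0.0479 in WT and 0.0489 to 0.0600 in Mixed, but 3.75 to 6.82 in BM. In the 9 fetal libraries the ratio of Cd177 to Ngp thus varied far less than between those libraries and BM.

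The genes called in KO left that proportion. Mmp8 to Ngp was 2.27 to 10.1 in KO and 0.269 to 0.576 in WT, and over all libraries it ranged 37.7-fold. Lcn2 to Ngp was 0.825 to 2.28 in KO and 0.184 to 0.211 in WT, and Asprv1 to Ngp was 0.151 to 0.567 in KO and 0.00455 to 0.00613 in WT. Olfm4 to Ngp was 1.02 to 2.63 in KO and 0.354 to 0.584 in WT, with Mixed at 0.800 to 1.06. In KO 1, where Ngp was highest, each of these 4 ratios was the lowest of the KO libraries. Retnlg to Ngp was 0.0321 to 0.0347 in WT, 0.0643 to 0.0819 in KO and 0.230 to 0.421 in BM, and Mmp9 to Ngp was 0.0312 to 0.0401 in WT, 0.0578 to 0.0640 in KO and 0.0868 to 0.196 in BM.

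**Figure D5:**
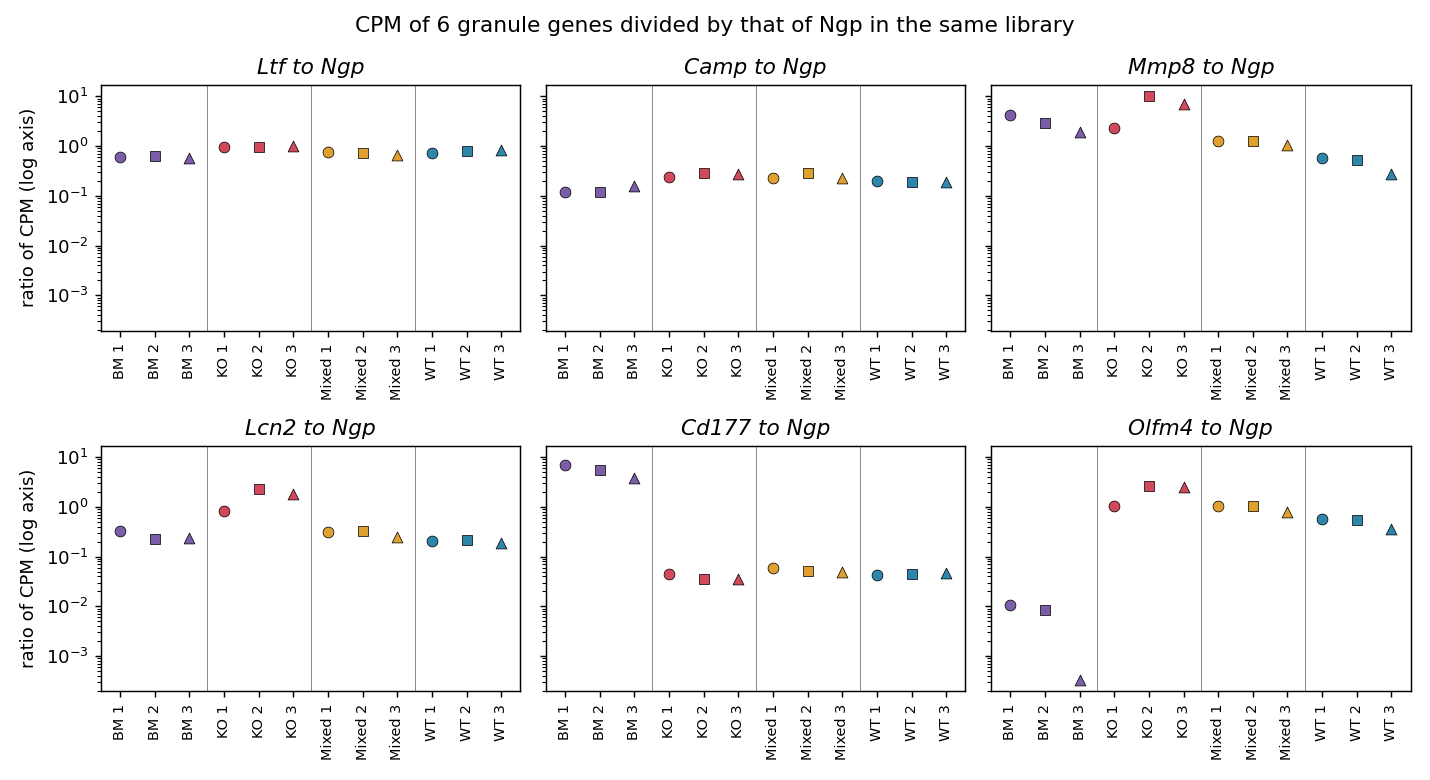
CPM of 6 of the genes divided by the CPM of Ngp in the same library (log axis shared by the panels), with circles, squares and triangles for libraries 1, 2 and 3 of BM, KO, Mixed and WT. Ltf to Ngp stays between 0.582 and 0.985, Mmp8 to Ngp spans 0.269 to 10.1, and Cd177 to Ngp is 3.75 to 6.82 in BM and under 0.06 in every fetal library.

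Levels of different genes were compared per length, on the deposited TPM scale. The order was Cd177 (284 TPM), Mmp8 (178) and Ngp (132) in BM, and Mmp8 (516), Lcn2 (422) and Ngp (243) in KO. It was Ngp (136), Mmp8 (81.8) and Camp (61.6) in Mixed, and Ngp (464), Ltf (190) and Camp (166) in WT. Neighbours in this order often lay within the spread of the libraries: in WT, Ltf was 190 ± 121 TPM and Camp 166 ± 96.8 (SD, n = 3). In BM, Cd177 (284 ± 15.6) and Mmp8 (178 ± 4.53) lay further apart than their SDs. At the low end were Olfm4 in BM (0.339 TPM), Cd177 in KO (4.36) and Asprv1 in Mixed (0.491) and WT (2.04).

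Other genes of the granule and neutrophil programme were read from lists chosen by function. The background over all genes tested was 18.2% higher and 19.9% lower in KO against WT. It was 32.1% and 31.9% in BM against WT, and 4.21% and 3.87% in Mixed against WT. Of 19 tested genes for other secondary, tertiary, ficolin-1-rich or secretory compartments, 11 were higher and 6 lower in KO against WT. Chil1, a chitinase-like protein of the specific granule, was at 509 to 545 CPM in KO and 9.88 to 24.5 in WT (5.05, SE 0.28, adjusted p = 1.12e-06). The antibacterial protein Pglyrp1 was at 374 to 446 CPM in KO and 63.8 to 112 in WT (2.31). The membrane proteases Mmp25 (2.12) and Adam8 (1.99) were higher as well. In BM against WT, 11 were higher and 7 lower, among them Mmp25 (2.21) and lysozyme Lyz2 (1.85) higher and Fcnb (-1.85) and Chil1 (-1.76) lower. In Mixed against WT, 6 were higher and 3 lower.

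The primary granule genes did not move as a block in KO against WT. Of all genes tested, 38.1% were called in KO against WT, 64% in BM against WT and 8.07% in Mixed against WT. Of 13 tested, 4 were higher and 7 lower in KO against WT, with the serine protease Prss57 (2.37) and Nkg7 (1.82) higher and the cystatin Cst7 (-2.19) and myeloperoxidase Mpo (-1.41) lower. In BM against WT most were lower, with 10 lower and 2 higher, where 31.9% of all genes were lower and 32.1% higher. The median difference of the 13 was -1.57, beside 0.003 over all genes. Among the lower genes were Cd63 (-4.27), Mpo (-2.87), Prss57 (-2.70) and Ms4a3 (-2.02). In Mixed against WT, 1 was higher and 6 were lower, where 4.21% of all genes were higher and 3.87% lower.

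Transcription factors of granulocyte and monocyte development were also mixed in KO against WT. The shares of all genes called were 38.1% in KO against WT, 64% in BM against WT and 8.07% in Mixed against WT. Of 14, 5 were higher and 6 lower in KO against WT. Cebpe was at 103, 98.6 and 86.3 CPM in KO 1 to 3 and at 25.2 to 33.3 in WT (1.77, SE 0.11, adjusted p = 5.27e-11). Irf8 (1.44) was higher, and Zeb2 (-2.76) and Cebpa (-1.88) were lower. In BM against WT, 8 were higher and 3 lower, with Klf4 (1.76), Rara (1.68) and Cebpa (1.12) higher and Cebpe lower, at 10.3 to 11.4 CPM (-1.37). In Mixed against WT, 2 were higher and 1 lower, and Cebpe was at 26.0 to 32.7 CPM, within the WT range.

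Binding partners, receptors and inhibitors of the granule proteins were tested for 9 of 13 genes, and Timp1, Timp3, Timp4 and Lrp2 were too low. Beside them, 38.1% of all genes were called in KO against WT, 64% in BM against WT and 8.07% in Mixed against WT. In KO against WT, 5 were higher and 3 lower, with the Cd177 partner Pecam1 (1.85), the cathelicidin receptor Fpr2 (0.65) and the integrin chain Itgam (0.59) higher and the lipocalin 2 receptor Slc22a17 (-1.11) lower. In BM against WT, 5 were higher and 4 lower, with Itgam (0.84) higher and Slc22a17 (-2.14), proteinase 3 (Prtn3, -1.57) and Fpr2 (-1.56) lower. In Mixed against WT, 2 were higher and none lower.

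The neutrophil markers were also read as a list. Over all genes, 18.2% were higher and 19.9% lower in KO against WT, and 32.1% and 31.9% in BM against WT. In Mixed against WT these shares were 4.21% and 3.87%. Of 19 markers, 15 were higher and 2 lower in KO against WT, 4 higher and 12 lower in BM against WT, and 1 higher and 4 lower in Mixed against WT. Their summed level was 10890 to 12990 CPM in KO, 4147 to 5224 in WT, 3727 to 3998 in Mixed and 1014 to 1101 in BM, most of it S100a8 and S100a9, and none was at 0 in all libraries of a group. In KO against WT the leading changes were Ly6g (3.73), Stfa2 (3.61), Il1r2 (2.88) and Stfa2l1 (2.73), and in BM against WT they were Stfa3 (-8.96), Stfa2 (-7.66), Stfa2l1 (-6.77) and S100a8 (-4.02). The chemokine receptor Cxcr2 was at 109 to 116 CPM in KO, 43.8 to 54.2 in WT, 45.4 to 47.6 in Mixed and 4.02 to 7.75 in BM. Within groups, 15 of the 19 markers were highest in KO 1 and 17 of 19 in WT 3. Ly6g was at 13.4, 11.9 and 8.28 CPM in KO 1 to 3, where Ngp was at 478, 101 and 139. In WT 1 to 3 Ly6g was at 0.502, 0.581 and 1.41 CPM, where Ngp was at 245, 297 and 705. Whether admixed neutrophils contribute to the granule gene levels was not tested.

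Markers of other cells were often highest in WT 3 too, and less often in KO 1. Over all genes tested, WT 3 was the highest WT library for 39.6% and KO 1 the highest KO library for 33.6%. In WT 3 all 7 erythroid markers were the highest of the group, with a sum of 886 CPM beside 445 and 509 in WT 1 and WT 2, and in KO 1 the sum was 635 beside 302 and 480. Of the macrophage markers, 8 of 9 were highest in WT 3 and 7 of 9 in KO 1. The 5 hepatocyte markers summed to 61.0 CPM in WT 3 and 10.4 and 8.40 in WT 1 and WT 2, but in KO the highest was KO 3, at 76.5. Eosinophil markers were highest in WT 3 for 7 of 7 and in KO 1 for 2 of 7. Monocyte markers were highest in WT 3 for 6 of 12 and in KO 1 for 2 of 12. None of the 7 erythroid and none of the 5 hepatocyte markers was called in KO against WT by edgeR, where 38.1% of all genes were. All of them were lower in BM against WT, where 31.9% of all genes were. Dendritic cell markers summed to 95.8 to 107 CPM in KO and 8.93 to 10.1 in WT, and B cell markers to 129.8 to 143.9 in KO and 79.6 to 87.3 in WT, with Pax5 and Ebf1 at 0 in all WT libraries. T and NK cell markers summed to at most 1.24 CPM in any library. The part of these cells in the granule gene levels was not tested.

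The genes whose deviations were most like those of Ngp, among 8227 compared over the 12 libraries, were Snhg15 (r = 0.952), Gmeb2 (0.949), Tmcc2 (0.941), Hk3 (0.936), Tgif1 (0.934), Wfdc21 (0.931), Pygl (0.915) and Ampd3 (0.913). Their own spread within groups was mostly small, with an SD of 0.08 for Snhg15 and 0.21 for Hk3, but 0.73 for Tmcc2. Since deviations are taken from each group's mean, this likeness says nothing of group levels. Hk3, a hexokinase, averaged 252 CPM in BM, 39.4 in KO, 152 in Mixed and 131 in WT. Wfdc21 averaged 3.76 CPM in BM, 25.3 in KO, 8.72 in Mixed and 15.2 in WT, and Snhg15 6.37, 7.81, 12.4 and 13.9. Those most like Mmp8 were Lysmd1 (0.982), Spp1 (0.959), Anxa3 (0.95), Slc11a2 (0.937), Pglyrp1 (0.933), Cd24a (0.93), Padi4 (0.925) and Arsb (0.924). Of these, Pglyrp1 averaged 410.3 CPM in KO and 82.5 in WT, Cd24a 170 and 18.3, and Spp1, osteopontin, 77.3 and 33.0. Padi4 averaged 20.2 CPM in KO and 5.82 in WT, and Lysmd1 22.8 and 15.3. The means of the other 3 were lower in KO than in WT, at 177 and 233 CPM for Anxa3, 16.4 and 17.9 for Slc11a2, and 27.7 and 29.3 for Arsb. These values describe likeness in 12 libraries and carry no test.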

How the data were processed

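RNA was taken from sorted monocytes with a NucleoSpin RNA XS kit and made into libraries with a SMARTer Ultra Low kit, which does not mark strand, per the labels' protocols. The authors deposited estimated counts per gene and TPM values. The submitters' processing notes name DRAGEN, STAR, Subread, featureCounts, Salmon and the build mm10, with no roles. Of nonzero estimated counts, 28.5% were not whole (tolerance 1e-06), so they were rounded. Of 55774 entries, 287 repeats were removed. Genes were filtered with filterByExpr (minimum count 10, minimum total 15), which kept 14618 genes and at least 99.8% of each library's counts.

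Testing used edgeR 4.0.16 (R 4.3.3; TMM scaling, robust quasi-likelihood fit, 1 mean per group over the 12 libraries) with Benjamini-Hochberg adjustment over all genes tested in each of 6 contrasts and a threshold of 0.05. Log2 CPM used a prior count of 2. The deposited TPM was used only to compare genes. The procedure was tested on simulated data. Alternatives were RLE size factors, DESeq2 1.42.0, no filter, a non-robust fit, 2-group fits, a replicate block, embryonic day as a covariate and each library left out. Leaving out KO 1 and WT 3 together was chosen after seeing the data.

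The 10 genes and all lists were chosen with earlier results of these data known. The text names all 10 genes, for the granule, regulator, partner and neutrophil lists up to 4 called genes of largest change with average log2 CPM of at least 1, and the 8 non-predicted genes with average log2 CPM of at least 3 most like Ngp and Mmp8. Whether the 3 libraries of a group are separate animals is not stated, and the p-values reflect library-to-library spread that may be technical. Same-numbered libraries did not deviate together (correlations of -0.035 to 0.069), so the numbers were not used as pairs.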

Additional observations from a re-analysis of the deposited data

How the results depend on the processing

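Of the fold changes recomputed under the alternatives, 1061 kept direction and call, 52 gained a call, 35 lost one and 22 reversed, and the cause was not tested. Lcn2, Mmp8 and Asprv1 were called in KO against WT in all 20 settings. In Mixed against WT, 0 of the 10 genes were called, but 5 by DESeq2 (with 12.1% of all genes called), 6 without the robust estimate (7.66%), 1 with embryonic day as a covariate (Mmp8, 2.83%), 6 without KO 1 and WT 3 (10.6%), and 0 to 2 with single libraries left out. Genes with more spread within than between the 4 groups numbered 1, and 0 to 2 with single libraries left out. Without KO 1 and WT 3 there were 0, and removing the highest libraries narrows the spread within groups by construction. With embryonic day as a covariate, KO against WT reversed for Ltf (0.39), Camp (0.38) and Mmp9 (0.91). That fit rests on WT 1 alone as control, the lowest WT library for these genes. Without KO 1 and WT 3, Retnlg in KO against WT (-0.13), Mmp9 in BM against WT (0.78) and Cd177 in KO against Mixed (-0.52) reversed. With single libraries left out, KO against WT ran from -1.50 to 0.15 for Ltf, -1.24 to 0.23 for Camp, -1.03 to 0.71 for Mmp9 and -0.68 to 0.83 for Retnlg. Mmp9 ran from -0.34 to 0.78 in BM against WT and from -0.28 to 1.00 in BM against KO, Cd177 from -0.52 to 1.04 in KO against Mixed, and Ngp from -0.40 to 0.12 in BM against Mixed. The replicate block gave 4 called genes in KO against WT, 0 in Mixed against WT and 6 in BM against WT, where Ngp was lost (adjusted p = 0.0529). It reversed Mmp9 in BM against WT (0.041), and Ltf in BM against KO (adjusted p = 0.0817) lost its call. Low counts limit Olfm4 in BM (34 counts) and Asprv1 in Mixed (36 counts).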
